A study of Mus musculus with 6 samples.

Results

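The regions described here are dense stretches of transcribed sequence in which almost no adenosine carried N6-methyladenosine (m6A). The mouse autosomes (chromosomes 1 to 19) were divided into bins of 1 kb, and a bin was called dense when 15 or more distinct m6A positions were listed in it. A dense bin was counted as nearly without m6A when the mean m6A level of the 3 MTH-WT samples was under 5% at every one of its positions. By this rule 1222 of 10816 dense bins (11.3%) were nearly without m6A. They held 22638 positions, which were 3.99% of the 567664 distinct positions listed in the series. The 9594 other dense bins, with 191634 positions, served for contrast. In all, 91764 autosomal bins held at least 1 listed position. The MTH-WT values chose the bins and are given only as a description, whereas the MTH-D values played no part in the choice.

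The samples were primary cultures of HCC-initiating cells (HCICs), cells of hepatocyte origin grown from livers of male mice months after injection of the carcinogen diethylnitrosamine (DEN). There were 6 samples, 3 labelled as Mthfd1l knockout (MTH-D) and 3 labelled as wild type (MTH-WT), all in 1 batch. Mthfd1l encodes a mitochondrial enzyme of one-carbon metabolism that yields formate, and m6A is made with methyl groups from S-adenosylmethionine, to which this metabolism contributes. Per the study's methods both groups went through Cas9 lentiviral transduction and outgrowth of single colonies, the MTH-WT cells with an empty vector. Each edited or control line made in this way is 1 clone. The 3 parental lines came from 3 mice, 1 control and 2 MDM2/MDMX double knock-in animals whose alleles impair p53 activation. Which sample number belongs to which of these lines is not stated in the labels, and the study's text names 2 of the lines for its m6A comparison, so samples of a group may share a line or a clone. The study describes only a small deletion in the MTH-D clone of 1 of these lines. The table holds m6A fractions and no expression levels, so neither the loss of Mthfd1l nor cell type markers could be checked by their levels.

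m6A is the most common internal modification of messenger RNA. The METTL3-METTL14 complex deposits it on adenosines within the DRACH motif (D is A, G or U, R is A or G, H is A, C or U), and in mammals it is densest in long internal exons and around stop codons, while stretches close to exon junctions carry little. Motifs are far more common than methylated sites, and what leaves a motif unmethylated is as much a part of the m6A landscape as its peaks. Nanopore direct RNA sequencing reads the native RNA strand and calls m6A at each motif adenosine in each read. The level of a position is the share of reads called modified. The table gives no read depth, so a level of 0 can stand for few or many reads.

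In the bins nearly without m6A, the mean over bins of the mean level of a bin was 0.792% in MTH-D 1, 0.976% in MTH-D 2 and 0.884% in MTH-D 3. In the same samples the other dense bins stood at 10.2%, 12.2% and 10.1%. The highest of the 3 low values was thus far under the lowest of the 3 high ones, and the gap within a sample averaged 9.96 ± 1.08 percentage points (SD, n = 3). The gap had the same direction in 3 of 3 MTH-D samples (two-sided exact sign-flip permutation test, p = 0.25, the smallest that 3 samples allow). The MTH-WT samples, which defined the bins, gave 0.848%, 0.865% and 0.748% in the bins and 10.7%, 11.8% and 10.5% in the other dense bins. The tests measure only the spread between these samples, which may be technical.

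**Figure D1:**
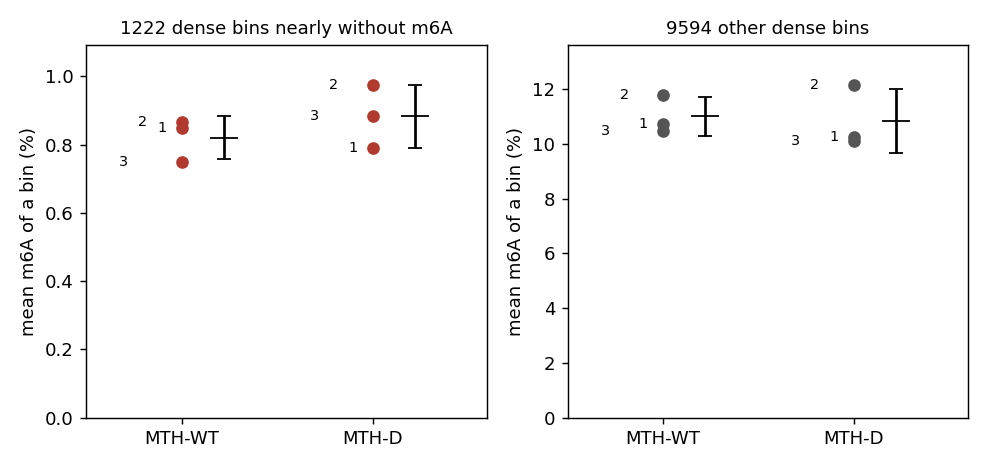
Mean m6A level (%) of the 1222 bins nearly without m6A (left) and the 9594 other dense bins (right) in each sample, numbered by replicate, with the mean and SD of the 3 samples of a group beside them. The left axis ends near 1% and the right axis above 12%, and in each panel the MTH-WT and MTH-D samples overlap.

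The MTH-D mean of a bin ran from 0.238% to 3.53%, with a median of 0.829%, whereas it ran from 0.419% to 53.0% with a median of 7.63% in the other dense bins. Levels of exactly 0 were frequent: 37.1%, 43.4% and 40.2% of the positions in the bins were at 0 in MTH-D 1, 2 and 3, against 20.98%, 24.0% and 23.7% in the other dense bins. No position of the whole table was at 0 in all 6 samples, so an adenosine called unmodified in every read of every sample would not be listed. Of the 22638 positions in the bins, 20855 (92.1%) were under 5% in each of the 6 samples.

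The next comparison asked whether bins that were low in MTH-WT were also low in MTH-D. In 1021 of the 1222 bins (83.6%, 95% Wilson interval 81.4% to 85.5%, counting error only) the MTH-D mean was under 5% at every position, beside 11.2% of all dense bins and 187 of the 9594 other dense bins (1.95%). The remaining 201 bins missed it. In 174 of them a single position reached 5% in MTH-D, in 24 it was 2 positions and in 3 it was 3 or more. The highest position of a bin in the MTH-D mean was under 6% in 1123 of the 1222 bins, under 10% in 1215 and 16.7% at most. The share of bins that met the rule in MTH-D depended on how close the bin had been to the limit in MTH-WT. It was 179 of 184 bins (97.3%) when the highest MTH-WT position was under 2%, and 206 of 323 bins (63.8%) when it lay between 4% and 5%.

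The highest position of a bin was also far lower than in other dense bins. Its median in the MTH-D mean was 3.33% in the bins nearly without m6A and 53.3% in the other dense bins. Only 7 of the 22638 positions reached 10% or more, against 23.3% of the positions of other dense bins. When samples were taken alone the picture was looser, to an extent that differed between samples. All positions were under 5% in 993 of the 1222 bins (81.3%) in MTH-D 1, 717 (58.7%) in MTH-D 2 and 880 (72.0%) in MTH-D 3. The corresponding shares of other dense bins were 2.94%, 1.20% and 2.64%. MTH-D 2 and MTH-WT 2, the samples with the highest levels in other dense bins, had the fewest such bins in their group, and MTH-WT gave 976, 810 and 1015 bins.

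**Figure D2:**
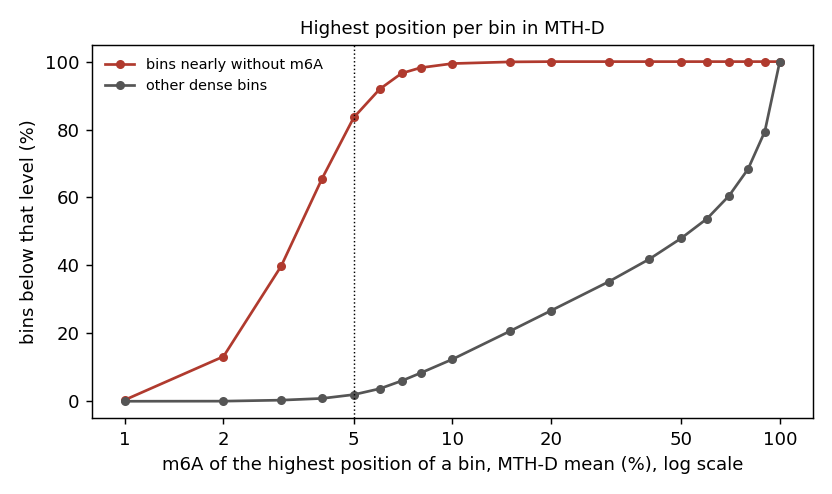
Cumulative share of bins (%) by the m6A level of their highest position in the MTH-D mean (%, log axis), for bins nearly without m6A (red) and other dense bins (grey), with the 5% limit as a dotted line. At 5% the red line stands at 83.6% and the grey line at 1.95%, and at 10% they stand at 99.4% and 12.4%.

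In total 232 of the 22638 positions (1.02%) had an MTH-D mean of 5% or more, against 32.7% of positions in other dense bins. Most of these excesses were not shared by the 3 MTH-D samples. Only 40 of the 232 were at 5% or more in all 3 MTH-D samples, 121 were so in 2 and 71 in 1. The highest sample was MTH-D 2 for 111 of them, MTH-D 3 for 78 and MTH-D 1 for 43. The highest position of all, chr11:100778442, read 0%, 28.6% and 21.4% in MTH-D 1, 2 and 3 and 0%, 10% and 4% in MTH-WT 1, 2 and 3. Position chr9:38659031 was the second, at 13.04%, 7.69% and 14.3% in MTH-D and 0%, 8.33% and 3.45% in MTH-WT. Position chr1:167981558 was at 0% in all 3 MTH-WT samples and in MTH-D 2 but at 20% and 13.3% in MTH-D 1 and 3. Position chr15:79793033 read 10.3%, 7.46% and 12.4% in MTH-D 1, 2 and 3 and 5.49%, 4.76% and 4.35% in MTH-WT 1, 2 and 3. These positions were chosen for a high MTH-D mean, and the rule had kept their MTH-WT mean under 5%. Their differences between the groups are therefore favoured by the choice and carry no test.

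Because the rule takes low MTH-WT values, the difference between the groups over the chosen bins leans upward by construction. Over the 22638 positions the mean was 0.785%, 0.970% and 0.881% in MTH-D and 0.846%, 0.862% and 0.744% in MTH-WT, a difference of 0.0613 percentage points with overlapping groups. It was 0.0156 points without MTH-D 2, 0.0246 without MTH-WT 3 and 0.108 without MTH-D 1. When the same rule was applied to the MTH-D mean instead it gave 1208 bins, and the difference over those was -0.00607 points. The 2 lists shared 1021 bins, which were 83.6% of the MTH-WT list and 84.5% of the MTH-D list. To treat the groups alike, bins were also chosen by the mean of all 6 samples. This gave 1250 bins with 23133 positions, 1132 of them among the 1222. Their level was 0.779%, 0.950% and 0.865% in MTH-D 1, 2 and 3 and 0.854%, 0.884% and 0.757% in MTH-WT 1, 2 and 3. The groups overlapped and the difference of 0.0328 points (0.865 ± 0.085% against 0.832 ± 0.066%, SD, n = 3 each) did not exceed the spread between samples (two-sided exact permutation test, p = 0.60, where 3 against 3 cannot go below 0.10). It turned to -0.00974 points without MTH-D 2 and to -0.00458 points without MTH-WT 3.

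No dense bin and no position differed between MTH-D and MTH-WT at a limma adjusted p under 0.05, neither among the bins nearly without m6A nor elsewhere (0% of 10816 bins and 0% of 567664 positions). These zeros do not show that the groups were alike, since with 3 samples a group the fit could call only large changes of a bin and hardly any change of a single position. Before adjustment, 160 dense bins (1.48%) and 18299 positions (3.22%) had a limma p under 0.05. Among the bins nearly without m6A it was 45 of 1222 bins (3.68%), 37 of them higher in MTH-D, and 640 of 22638 positions (2.83%). From these shares nothing can be read, since the rule used the MTH-WT values. The lowest unadjusted p of such a bin belonged to chr5:16578001-16579000, with 0.433%, 0.625% and 1.11% in MTH-D 1, 2 and 3 against 1.21%, 1.35% and 1.79% in MTH-WT 1, 2 and 3 (limma adjusted p = 1.00).

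The bins with the most listed positions show how far a low level can extend. Bin chr6:35486001-35487000 held 35 positions, the most of any. Its mean was 0.697%, 1.15% and 1.11% in MTH-D and 0.851%, 0.356% and 0.610% in MTH-WT, and its highest position reached 9.32% in the MTH-D mean. Bin chr7:46574001-46575000 held 33 positions, at 0.532%, 0.610% and 0.657% in MTH-D and 0.492%, 0.537% and 0.309% in MTH-WT, and its highest position was at 2.57% in the MTH-D mean. Bin chr2:84518001-84519000 held 32 positions at 0.672%, 1.07% and 0.888% in MTH-D and 0.695%, 1.20% and 0.698% in MTH-WT. All 3 bins stayed near 1% or below in every sample except for MTH-D 2 and 3 of the first and MTH-D 2 and MTH-WT 2 of the last, which lay slightly above it. Over the 20 bins with the most positions, the MTH-D mean ran from 0.406% (chr5:92590001-92591000) to 1.49% (chr11:97052001-97053000).

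Dense bins with more positions were less often nearly without m6A. They made up 849 of 6082 dense bins (14.0%) with 15 to 19 positions and 71 of 1427 (4.98%) with 25 or more, as a rule on every position gives with more positions to pass. The bins had a median of 18 positions (15 to 35) and the other dense bins a median of 19 (15 to 70). Just outside the rule, 1215 dense bins had a single position at 5% or more in MTH-WT. The bins nearest to the limit had a highest MTH-WT position of 4.99%, 4.99% and 4.98% on the inside and 5.01%, 5.01% and 5.02% on the outside.

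At the upper end stood chr3:92597001-92598000, the bin with the highest MTH-D mean. Its 18 positions averaged 0.603%, 6.69% and 3.31% in MTH-D 1, 2 and 3 and 0.568%, 2.35% and 2.18% in MTH-WT 1, 2 and 3. The samples numbered 1 were lowest in both groups there. The next, chr8:105324001-105325000, was at 1.21%, 4.07% and 1.66% in MTH-D, so that its mean rested on MTH-D 2. At the lower end, chr6:83784001-83785000 with 18 positions had 0.318%, 0.169% and 0.227% in MTH-D and 0.344%, 0.151% and 0.518% in MTH-WT. No position of that bin passed 0.810% in the mean of either group.

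The bins tended to lie beside each other. They formed 1028 runs, of which 865 were a lone bin, 138 had 2 bins, 19 had 3 and 6 had 4. Neighbours were counted from each bin to either side, so a bin could be counted more than 1 time. Of the dense neighbours of bins nearly without m6A, 388 of 1131 (34.3%) were nearly without m6A themselves. For the dense neighbours of other dense bins it was 743 of 6393 (11.6%). The longest runs included chr1:118608001-118612000 with 98 positions, whose mean was 0.464%, 0.491% and 0.582% in MTH-D and 0.677%, 0.567% and 0.428% in MTH-WT. In chr15:103100001-103104000, 74 positions averaged 0.540%, 0.627% and 0.491% in MTH-D. In chr16:24807001-24811000, 77 positions averaged 0.467%, 0.510% and 0.624% in MTH-D. Each of these 3 runs stayed under 0.7% in every sample over 4 kb. The other runs of 4 bins rose above that in some or all samples, up to 0.933% in MTH-WT 2 of chr6:56735001-56739000. By chromosome, the share of dense bins nearly without m6A ran from 5.18% on chromosome 17 (23 of 444) and 6.52% on chromosome 7 (45 of 690) to 15.7% on chromosome 6 (81 of 515).

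Outside the bins the level rose with distance. Positions up to 250 bases beyond the edge averaged 2.39 ± 0.29% in MTH-D (SD, n = 3), those at 750 to 1000 bases 5.46 ± 0.60% and those at 1750 to 2000 bases 6.83 ± 0.80%. Beside the other dense bins the level fell instead, from 9.95 ± 1.00% within 250 bases to 8.16 ± 0.78% at 1750 to 2000 bases. Within 1 kb, 31435 positions beside the bins nearly without m6A stood at 3.50%, 4.23% and 3.49% in MTH-D 1, 2 and 3, against 8.80%, 10.3% and 8.73% beside other dense bins. The 2 sets did not overlap. With positions that were themselves in a bin nearly without m6A left out, the values were 4.35%, 5.26% and 4.31%, still under those beside other dense bins in 3 of 3 samples.

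**Figure D3:**
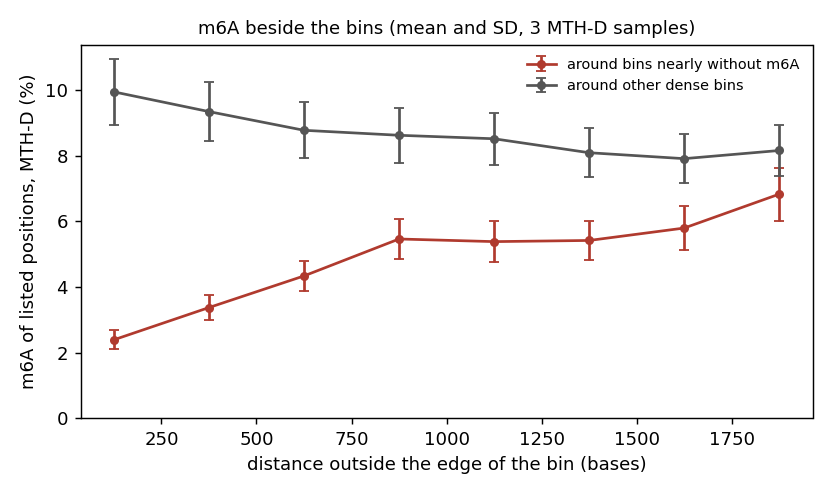
m6A level of listed positions (%, mean and SD of the 3 MTH-D samples) by distance in bases outside the edge of a bin, along the genome, for bins nearly without m6A (red) and other dense bins (grey). The red line climbs from 2.39% to 6.83% over 2000 bases while the grey line goes from 9.95% to 8.16%.

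Genes and transcript parts could be assigned only where the numbering of the files (GRCm39) coincided with that of the annotation used (GENCODE M21, built on an earlier assembly). A bin was accepted when at least 80% of its positions fell on a DRACH adenosine of an annotated transcript. This held for 237 dense bins at the beginnings of chromosomes 4, 6, 9 and 18, in which 98.0% of positions fell on such an adenosine, against 1.28% when the numbering was moved by 1 base. Of these, 34 in 25 genes were nearly without m6A (14.3%) and 203 were other dense bins. The genes of the remaining 1188 bins nearly without m6A were not analysed here, except for a bin in the run of Impad1 described below. What follows thus describes a small share of the bins. Chromosome 4 alone gave 176 of the 237 matched bins and 27 of the 34 nearly without m6A, while chromosome 18 gave 6 of the 34, chromosome 6 gave 1 and chromosome 9 none. Transcript parts, exon lengths and distances were taken on the longest annotated protein-coding transcript of a gene, or its longest transcript where none was coding. Which transcript forms the cells used was not tested.

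Most of these 34 bins lay in long 3′ UTRs, well past the stop codon. Of the 34, 30 lay mainly in a 3′ UTR, 2 in coding sequence, 1 in the processed pseudogene Gm11847 and 1 on an alternative transcript of Faxc. Of the 203 other dense bins, 148 lay mainly in a 3′ UTR, 48 in coding sequence and 2 in a 5′ UTR. Counted by position, 563 of 643 (87.6%) were in a 3′ UTR against 67.9% in the other dense bins, and 6.53% in coding sequence against 29.0%. Reads of a processed pseudogene such as Gm11847 can come from its parent gene, and its assignment is uncertain.

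The 3′ UTR bins lay far from the stop codon. The median position of a bin lay 2051.5 bases past the stop codon (median over 30 bins, 672.5 to 11620.5), against 613 bases for the 148 other dense 3′ UTR bins. Of all positions in the matched bins, coding sequence included, 77.0% lay more than 1000 bases past the stop codon against 26.7%. The exon that held the 3′ UTR bins was longer, with a median of 4160.5 bases against 2699.5. Of all positions in the matched bins, few lay within 100 bases of an exon junction, 5.13% against 4.39%. The median distance of a bin to a junction was at least 831.5 bases in the 3′ UTR bins, against at least 141.5 in the other dense 3′ UTR bins. It was 31 and 64 bases in the coding-sequence bins of Tln1 and Ccdc107. Among matched dense 3′ UTR bins, 0 of 55 centred within 500 bases of the stop codon were nearly without m6A, which allows a share of up to 5.45% by a limit of 3 bins and up to 6.53% by the 95% Wilson interval. The count was 3 of 42 at 500 to 1000 bases (7.14%), 12 of 34 at 1000 to 2000 bases (35.3%), 9 of 21 at 2000 to 3000 bases (42.9%) and 6 of 24 beyond that (25%). The level of all 3′ UTR positions in matched dense bins fell along the same axis, from 14.6 ± 1.8% within 500 bases to 2.17 ± 0.34% at 2000 to 3000 bases in MTH-D (SD, n = 3). Several bins come from the same transcript, the intervals cover counting error only, and these shares are a description with no test.

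**Figure D4:**
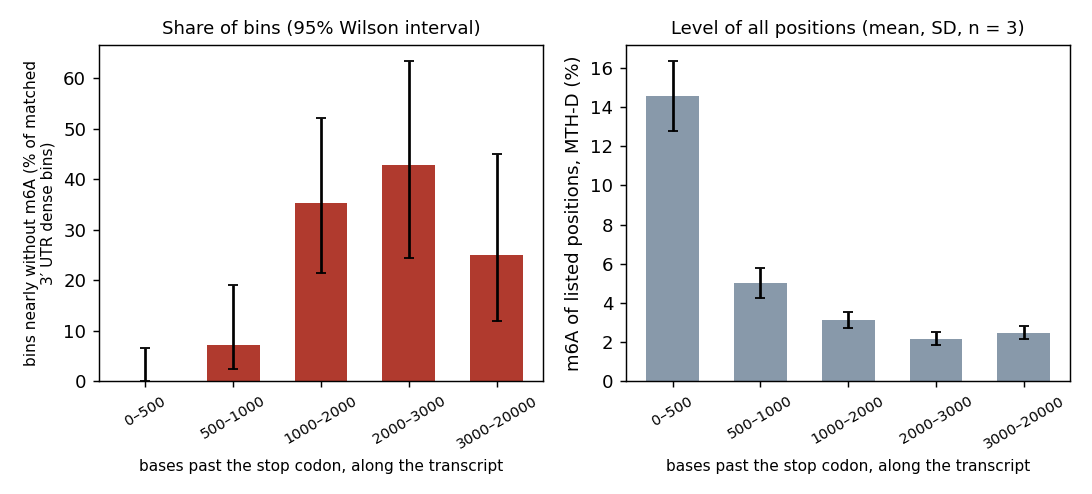
Left, share of matched dense 3′ UTR bins that were nearly without m6A (%, bars from 0, with 95% Wilson intervals) by the distance of the bin's median position past the stop codon in bases. Right, m6A level (%, mean and SD of 3 MTH-D samples) of all 3′ UTR positions in matched dense bins by the same distance. The share is 0% in the first class and 42.9% at 2000 to 3000 bases, while the level falls from 14.6% to 2.17%.

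The bins held the same m6A pentamers as the other dense bins, some at lower and some at higher shares. GGACT, the pentamer that is most often methylated (T stands for U, and the third letter is the adenosine read), was found at 22 of the 643 positions (3.42%) and at 193 of 4030 positions (4.79%) of the other dense bins. At GGACT the level was 1.35%, 2.52% and 1.62% in MTH-D 1, 2 and 3 in the bins nearly without m6A and 41.4%, 47.0% and 40.4% in the other dense bins. The pentamer GGACA showed 1.76 ± 0.44% against 25.8 ± 3.0%, GAACT 0.955 ± 0.069% against 26.3 ± 2.6% and AGACT 1.02 ± 0.11% against 23.8 ± 2.6% in MTH-D (SD, n = 3). For the weak pentamer AAACA the levels lay closer, at 0.706 ± 0.144% against 2.41 ± 0.32%. Even so, in the bins nearly without m6A GGACT stood above AAACA in 3 of 3 MTH-D samples. The rule had kept every position of the bins, GGACT included, under 5% in the MTH-WT mean. The other dense bins of this contrast include those in coding sequence and near the stop codon. Among other dense 3′ UTR bins 1000 to 2000 bases past the stop codon, the median MTH-D level of a bin over all pentamers was 2.57%. It was 1.86% at 2000 to 3000 bases and 2.08% beyond that. Pentamers that begin with GGAC made up 10.9% of positions against 13.5%, whereas AGACA made up 6.84% against 5.98%, GAACA 6.998% against 6.43% and TGACT 7.15% in both. Of the DRACH adenosines that the annotated transcripts hold in these bins, 89.3% were listed against 93.8% in the other dense bins.

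Named transcripts show the pattern in full. Impad1, which encodes a Golgi phosphatase of phosphoadenosine metabolism, had 3 matched bins in the run chr4:4763001-4767000. The first bin of the run fell short of the share of positions required for a match. Its positions that fell on a motif of the Impad1 transcript were counted with the run all the same. The 79 positions of the run that fell on a motif of the transcript lay between 818 and 4701 bases past the stop codon. Their mean was 0.691%, 0.720% and 0.585% in MTH-D 1, 2 and 3. The 16 positions outside the bins within 500 bases of the stop codon, on either side of it, averaged 25.4%, 29.1% and 25.5%, and a position 75 bases before the stop codon reached 94.9%. Manea, a Golgi endomannosidase that trims N-glycans, had 2 bins with 46 such positions at 0.546%, 0.695% and 0.511%, against 23.7%, 27.1% and 23.2% near the stop codon. C1galt1, the galactosyltransferase that builds core 1 O-glycans, was chosen after its values were seen. It had 1 bin at 0.505%, 1.07% and 0.797% while 22 positions near its stop codon averaged 34.8%, 37.1% and 35.3%, the highest of all these genes.

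Further genes with 2 bins had a lower level near the stop codon than Impad1 and Manea. Trp53inp1, a p53 target that acts in stress responses and autophagy, had 2 bins with 37 positions at 0.980%, 0.847% and 0.962% in MTH-D, and 24 positions near the stop codon at 9.67%, 11.0% and 9.74%. The highest of these 24, up to 75.0% in the MTH-D mean, lay before the stop codon. The other dense bin of Trp53inp1 at 101 to 997 bases past it was as low as the 2 bins, at 0.886%, 1.04% and 0.819% in MTH-D 1, 2 and 3. Tgfbr1, the type I receptor kinase of TGF-beta, had 2 bins with 34 positions at 0.946%, 1.09% and 0.783%, against 5.50%, 7.67% and 4.91% near the stop codon. Beyond the last of its bins, single Tgfbr1 positions in the 3′ UTR reached 18.95% and 15.1% in the MTH-D mean, while the rest stayed at or under 2.42%. Single positions beyond the bins of Trp53inp1 likewise reached 8.82% and 14.9%, as the plot of m6A along these transcripts shows. Mib1, a ubiquitin ligase that activates Notch ligands, had 2 bins with 40 positions at 0.494%, 0.552% and 0.690%, and its positions near the stop codon were low as well, at 2.41%, 0.262% and 1.66%.

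**Figure D5:**
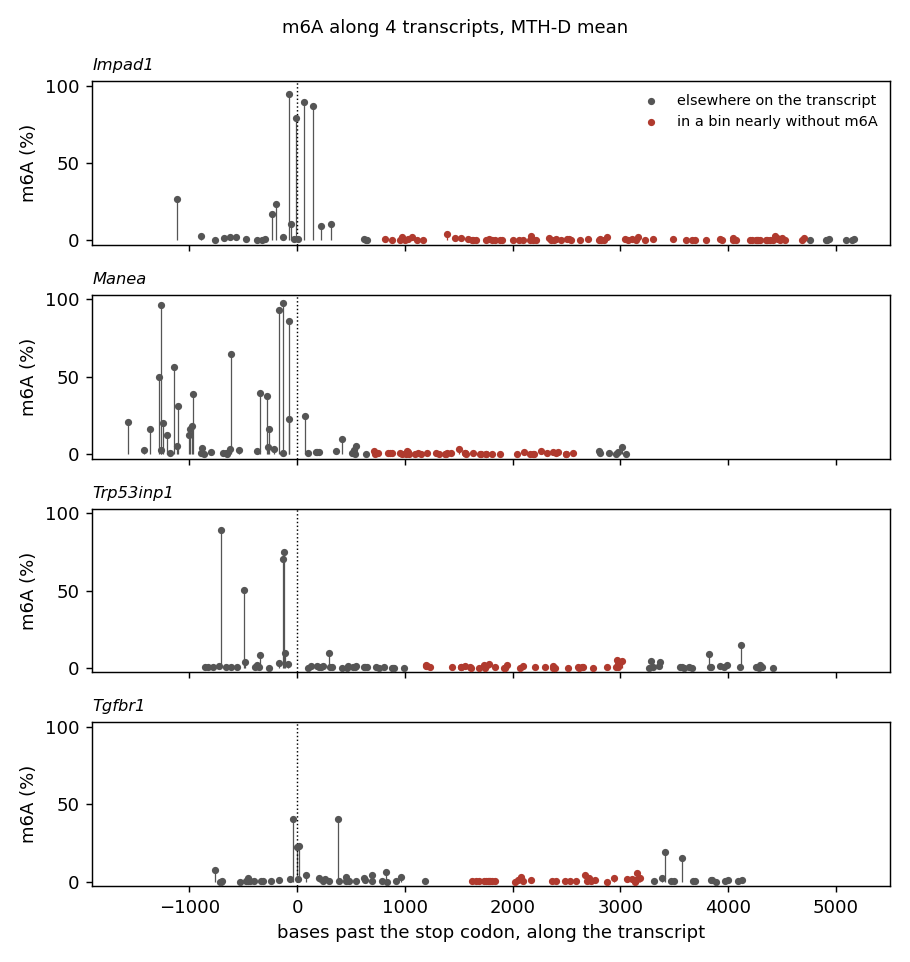
m6A level (%, MTH-D mean) of listed positions along the transcripts of Impad1, Manea, Trp53inp1 and Tgfbr1, by distance past the stop codon in bases (dotted line at the stop codon, negative values in coding sequence). Positions in bins nearly without m6A (red) stay at or under 5.75%, whereas positions elsewhere on the transcript (grey) reach 94.9%, 97.5%, 89.2% and 40.3%.

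The other genes with 2 bins were Cpne3, a calcium-dependent phospholipid-binding protein, with 38 positions on a motif of the transcript at 0.465%, 0.453% and 0.473% in MTH-D, Tmem245 with 32 positions at 0.481%, 0.525% and 0.410%, and Ugcg, the glucosylceramide synthase, with 30 positions at 1.09%, 1.27% and 0.915%. The bins of Tmem245 lay farthest from the stop codon, with medians of 10705 and 11620.5 bases past it in an exon of 13370 bases. In 22 genes a bin lay on the annotated transcript and at least 3 listed positions lay within 500 bases of the stop codon. That stretch had the higher MTH-D mean in 21 of them, with a median of 5.87% against 0.724% in the bins. In Usp45, counted among the 21, both means were 0.614%. In MTH-D 2 alone the stretch was the lower in Usp45 (0% against 0.778%) and Mib1 (0.262% against 0.552%). The values near the stop codon come from the same transcripts and samples and leave out positions inside the bins, which the rule had chosen for low levels, so the contrast is a description.

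The exception was Rps20, a ribosomal protein of the small subunit, which was low throughout the transcript used. That transcript is its longest annotated coding one, with a 3′ UTR of 3167 bases, and distances on other forms were not examined. It had a bin at 1.04%, 1.11% and 1.37% in MTH-D, and the 10 positions near its stop codon were lower, at 0.887%, 0.382% and 0.267%. The highest listed position of its transcript outside the bin was at 1.28%. Usp45 and Ccdc107 were likewise chosen after their values were seen. In Usp45, a deubiquitinating enzyme, the MTH-D mean was 0.614% both in its bin and at the 6 positions near the stop codon. The coding-sequence bin of Tln1, which encodes the adaptor talin between integrins and actin, spanned 4 exons and 22 positions at 0.302%, 0.370% and 0.534% in MTH-D. Its MTH-WT values were 2.12%, 0.464% and 0.303%, so that MTH-WT 1 stood apart. The coding-sequence bin of Ccdc107 had 20 positions over 3 exons at 0.515%, 0.377% and 0.506%.

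Of the gene lists consulted, few had any matched dense bin. Over all matched dense bins 34 of 237 (14.3%) were nearly without m6A, so the counts below are too small to say anything about a list or gene. Rps20 was the only matched ribosomal protein gene and Tln1 the only cytoskeletal one, and their single dense bins were both nearly without m6A. None of the 3 dense bins of Virma, the scaffold of the m6A writer complex, nor the 2 of Klf4, a progenitor marker of these cells, was nearly without m6A. The chaperone list and the oxidative phosphorylation list each had 1 matched dense bin, which was not nearly without m6A. The remaining lists, among them glycolysis, histones, one-carbon metabolism and hepatocyte, stromal, immune and endothelial markers, had no matched dense bin.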

How the data were processed

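Polyadenylated RNA from 6 HCIC cultures was sequenced directly on nanopore flow cells (1000 ng of total RNA, 1 flow cell per sample, runs of up to 72 h). The authors deposited 1 table with an m6A fraction (0 to 1) per position and sample, given here as percent. Per the labels' processing notes, GRCm39, minimap2 2.26 and SAMtools were used, and the modification caller is not given in the sources used here. Read depth is not in the table and is unknown, so no read-based interval is given.

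The 3 repeated rows were averaged, which left 567664 distinct positions. Positions in the table count from 0 and are printed counted from 1. Bins of 1000 bases on chromosomes 1 to 19 with 15 or more positions were compared. The rule, the gene lists and the genes named (bins with the most positions, genes with 2 or more bins, highest and lowest MTH-D means, positions at 10% or more in MTH-D, list members, and in addition C1galt1, Usp45, Ccdc107, Faxc and Gm11847, named after their values were seen) were chosen with earlier results of these data known. limma 3.58.1 (R 4.3.3) was fitted on log2 odds (an offset of 1 point on both the methylated and the unmethylated percent), over all positions and all dense bins, with Benjamini-Hochberg adjustment, and was tested on simulated data, where it recovered the larger changes of bins but few of the largest changes of single positions. Single values were compared with two-sided exact permutation tests in Python 3.11.15.

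For the replicate block the sample numbers were taken to pair the groups, which the main tests between the groups did not do. Deviations from the group mean over dense bins correlated at 0.220, 0.336 and 0.212 for the samples numbered 1, 2 and 3. Between samples of unlike number the correlations ran from -0.226 to 0.0341. The pairing comes from these correlations, and so from the same data, and from the study's description of paired cells. Over the bins nearly without m6A the correlations at equal numbers were 0.0755, 0.102 and 0.0677. Sequence windows were not printed because no genome of the files' build was used here. Alternatives were another number of positions, another limit, shifted bins, each sample left out, the replicate block, another offset and no log transform.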

Additional observations from a re-analysis of the deposited data

How the results depend on the processing

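The number of bins nearly without m6A followed the rule: 3056 with a minimum of 10 positions, 373 with 20, 534 with a limit of 3%, 2367 with a limit of 10%, and 606 when every single MTH-WT sample had to be under 5%, against 1222. It stayed between 1106 and 1289 with an MTH-WT sample left out of the rule. The share that also met the rule in MTH-D was 64.6% with the 3% limit, 92.2% with the 10% limit and 94.2% with every MTH-WT sample under it. It lay between 75.3% (without MTH-D 1) and 83.6% (without MTH-D 2) with an MTH-D sample left out, and between 79.6% (without MTH-WT 2) and 83.9% with an MTH-WT sample left out. The gap of the MTH-D level to other dense bins kept its direction under all 14 alternatives, from 3.67 points with medians over positions to 14.0 points without positions at exactly 0 or 1. The group difference in bins chosen from all 6 samples ran from -0.00974 (without MTH-D 2) to 0.0756 points with samples left out. It was -0.00458 without MTH-WT 3, and 0.113 points (p = 0.40, exact permutation) with medians over positions in place of means. The cause was not tested. With a replicate block it had p = 0.75 (exact sign-flip), with the samples numbered 1 and 3 alone p = 0.667. limma called 0 bins and 0 positions under every alternative. The replicate block called 0 bins as well, and changed no other call. With it, 540 dense bins (4.99%) had an unadjusted limma p under 0.05 in place of 160 (1.48%). Among the bins nearly without m6A it was 99 (8.10%) in place of 45 (3.68%). From these shares nothing can be read, since the rule used the MTH-WT values. A coverage minimum was not run, since the table holds no coverage.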

Other observations

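The X chromosome lay outside the rule. Of its 334 dense bins, 58 (17.4%) were under 5% at every position in the MTH-WT mean, and 52 of these were so in the MTH-D mean too. This share was above that of any of the 19 autosomes, whose highest was 15.7%, and was not tested.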
